A study of Mus musculus with 18 samples.

Results

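The first day of activation of 41BB- CD8 T cells was examined by setting 3 bulk RNA libraries taken after 24 h of stimulation against 3 taken from freshly sorted cells at 0 h. These 6 libraries are part of a set of 18, in which 41BB- and 41BB+ cells were each profiled in triplicate at 0, 24 and 72 h. All cells came from spleens and lymph nodes of wild-type C57BL/6J mice and had been sorted as CD8+ T cells. 41BB (CD137, encoded by Tnfrsf9) belongs to the TNF receptor superfamily and costimulates T cells; the study called the 41BB+ fraction Tpam and the 41BB- fraction conventional CD8+ T cells. The 24 h 41BB- cells had been cultured ex vivo in IMDM with 20% FBS and with Dynabeads coated with anti-CD3 and anti-CD28, which engage the T cell receptor (TCR) complex and its main costimulatory receptor without an antigen-presenting cell. The 0 h 41BB- cells went straight from the sorter to RNA extraction. The 41BB+ cells compared below were likewise freshly sorted at 0 h and activated for 24 h. No library of 41BB- cells cultured without beads is among the samples, so stimulation, culture and time out of the animal cannot be told apart. The age and sex of the mice and the number of mice behind each library are not given in the labels.

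A resting CD8 T cell is small, makes little protein and keeps itself out of the cell cycle with inhibitors and quiescence factors. Engagement of the TCR and CD28 activates NFAT, NF-kB and AP-1, and these induce cytokines, the high-affinity interleukin 2 (IL-2) receptor and factors such as IRF4 and MYC. In the following hours the cell takes up amino acids and glucose, builds ribosomes, enlarges and enters its first S phase, while homing receptors of the circulating naive cell are lost.

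The 41BB- libraries held 3133910, 4229487 and 3520464 counts at 24 h and 3227217, 3085241 and 3315474 counts at 0 h, within the range of 3085241 to 4239795 counts over all 18 libraries. Levels are given as CPM, a gene's counts scaled to 1000000 counts of its library, so a gene with 1 CPM rests on about 3 or 4 reads and values under a few CPM are imprecise. CPM is a share of a library: a cell that holds more RNA at 24 h shows no change for a gene that keeps its share, and fewer cells of a type and less RNA per cell cannot be told apart in bulk samples. Mitochondrially encoded transcripts took 6.54% ± 0.334 of counts at 24 h and 9.73% ± 1.45 at 0 h (SD, n = 3 each), with 11.4% in 1 library at 0 h. The nuclear RNA Malat1 took 0.220% ± 0.0461 of counts at 24 h and 0.736% ± 0.107 at 0 h. Both shares were lower in all 3 libraries at 24 h, for which an exact two-sided permutation test gives p = 0.1, the smallest value 3 against 3 libraries allow. The part of these shares in the results below was not tested.

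The sort was checked against marker genes. Tnfrsf9 itself was measured at 172, 184 and 194 CPM at 24 h, against 4.96, 6.81 and 8.45 CPM at 0 h, so cells sorted as 41BB- carried its transcript after activation (log2 fold change 4.68 ± 0.26, adjusted p = 1.46e-12). Cd8a, the CD8 alpha chain, had 506 ± 7.09 CPM at 24 h and 638 ± 54.8 CPM at 0 h, and Cd8b1, the beta chain, had 320.4 ± 7.45 CPM at 24 h and 878 ± 98.4 CPM at 0 h. All 12 CD8 T cell markers were measured, and their summed level lay between 2498 and 2631 CPM at 24 h and between 4739 and 5294 CPM at 0 h. Cd4 was at 1.28, 0 and 0.568 CPM at 24 h, against 0, 0.648 and 0 CPM at 0 h. The autosomal CD4 and regulatory T cell markers summed to 849 to 884 CPM at 24 h and 51.6 to 107 CPM at 0 h. Of 5 tested, 2 were higher, Il2ra and Ctla4, which activated CD8 T cells also express. Of the B cell markers, Cd79a, Ms4a1 and Cd79b averaged 0, 0.0947 and 1.59 CPM at 24 h, against 0.108, 0.324 and 11.7 CPM at 0 h. The summed level of the 14 B cell markers was 147 to 191 CPM at 24 h and 272 to 302 CPM at 0 h, most of it from the immunoglobulin heavy chain gene Ighm with 142 ± 16.8 CPM at 24 h and 229 ± 10.6 CPM at 0 h. The 13 myeloid markers summed to 1.91 to 14.2 CPM at 24 h and 3.89 to 8.14 CPM at 0 h, with S100a8 and C1qa at 0 in all 6 libraries. Itgam was listed at 0 in all 18 libraries, as were genes that most cells use, so its 0 is no measure of myeloid cells. NK cell markers other than Eomes, which CD8 T cells also express, were each under 2 CPM on average at both times. The 11 dendritic cell markers summed to 25.8 to 33.6 CPM at 24 h and 134 to 139 CPM at 0 h, of which Ccr9, a homing receptor that naive CD8 T cells also express, made up 5.95 CPM at 24 h and 99.9 CPM at 0 h. The 12 stromal and endothelial markers summed to 36.6 to 44.7 CPM at 24 h and 216 to 266 CPM at 0 h. Nearly all of it was Pecam1, which T cells also express (43.4, 35.9 and 34.7 CPM at 24 h, against 261, 206 and 214 CPM at 0 h; log2 fold change -2.66). Cdh5, an endothelial cadherin, averaged 0 CPM at 24 h and 0.516 CPM at 0 h. Of 6 plasma cell markers 3 were tested. The 2 higher ones were Xbp1 (30.8 CPM at 24 h and 20.7 CPM at 0 h) and Sdc1 (3.11 CPM at 24 h and 0.216 CPM at 0 h). Jchain averaged 0 CPM at 24 h and 0.309 CPM at 0 h. Xbp1 lost its call in 9 alternatives, among them those without replicate 1 or 3 at either time. Over the alternatives 0 to 2 plasma cell markers were higher. The 9 autosomal erythroid and platelet markers summed to at most 2.60 CPM at 24 h and 5.13 CPM at 0 h. The part of other cell types in the results below was not tested.

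At 24 h the transcriptome had been recast. Of 12686 autosomal genes tested, 3677 were higher at 24 h (29.0%) and 3531 were lower (27.8%), at an adjusted p under 0.05 in edgeR's quasi-likelihood test with Benjamini-Hochberg adjustment over all 13150 genes tested. The genes that were higher took 42.04% of all counts at 24 h and 15.8% at 0 h, whereas the genes that were lower took 25.9% at 24 h and 48.6% at 0 h. Of the 7208 called genes, 2450 differed by less than 2-fold, and the median log2 fold change of all tested genes was -0.07. Against a required change of at least 1.5-fold, 2540 genes were higher and 2164 lower. The largest fitted changes were more often upward, with 244 genes at least 16-fold higher at 24 h and 80 at least 16-fold lower. Of all genes higher, 29 had 0 counts and 89 had 1 to 3 counts at 0 h. Of all genes lower, 11 had 0 counts at 24 h. Fitted changes of such genes depend on the model's prior count, and their part in this imbalance was not tested. The 3 libraries at 24 h all lay above the 3 at 0 h in 4295 genes (33.9%) and all below them in 3788 (29.9%). Since 56.8% of all genes were called, the count of a gene list is read below against these shares. The lists were chosen with earlier results of these data known, so such a comparison describes a list and is no independent support. Of 1131 autosomal genes in the lists 1023 passed the filter on low counts, and a gene nearly absent at 1 time passed it through the other.

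**Figure D1:**
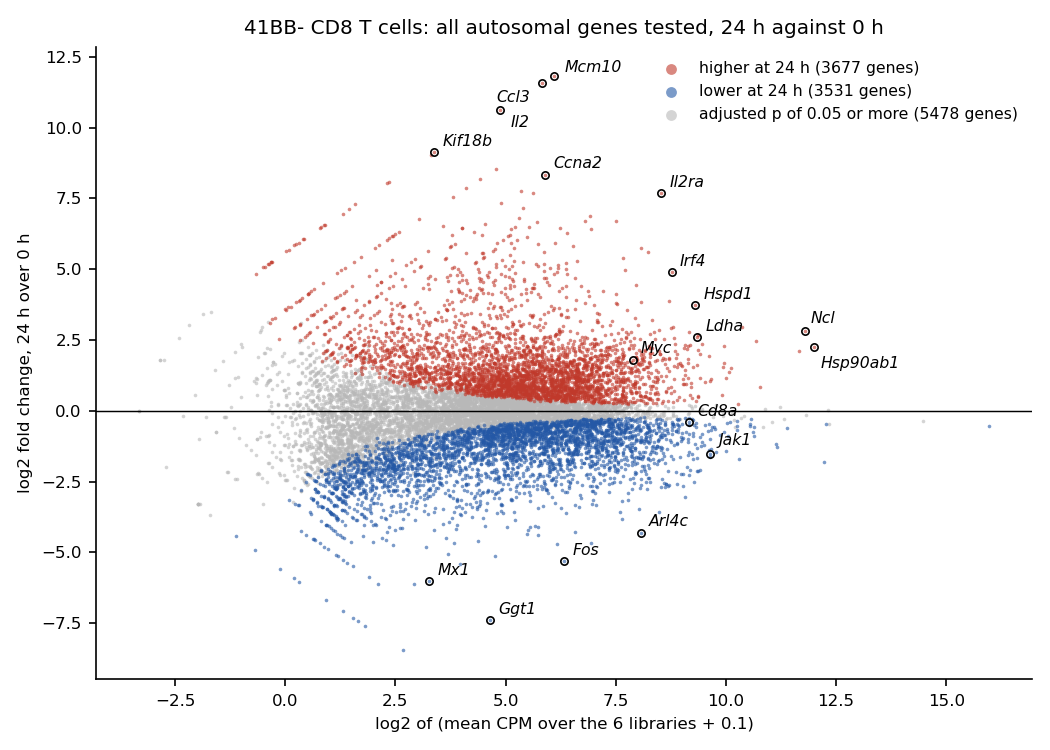
Log2 fold change of every autosomal gene tested in 41BB- cells (24 h over 0 h, vertical axis) against its mean level over the 6 libraries (horizontal axis, log2 of CPM + 0.1); red points are the 3677 genes higher at 24 h, blue points the 3531 lower, grey points the rest, and circles mark genes named in the text. The cloud is centred near 0 (median log2 fold change -0.07) and its upper tail reaches farther than its lower tail; the straight streaks at the left are genes with 0 or a few counts at 1 time, whose fitted values depend on the model's prior count.

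Among genes with a mean of at least 5 CPM, and leaving out predicted genes and pseudogenes, 5 of the 10 with the largest increase had no count in any library at 0 h. Mcm10, which replication forks need to start, had 143, 137 and 128 CPM at 24 h and 0 counts at 0 h, which makes it at least 436-fold higher, taking 3 counts over the 0 h group as the floor. The chemokine gene Ccl3 (101, 108 and 130.1 CPM at 24 h) was at least 363-fold higher and Il2 (39.6, 65.97 and 69.9 CPM), the growth factor that activated T cells secrete for themselves, at least 191-fold higher, both from 0 counts at 0 h. Kif18b, a mitotic kinesin, and Fosl1, an AP-1 subunit, were at least 68.1-fold and at least 63.1-fold higher. The other 5 had 1 to 3 counts at 0 h. Ccna2, the cyclin of S and G2 phase, had 1296 counts at 24 h against 3 at 0 h. Its depth-adjusted ratio was 382, with an exact 95% counting interval of 130.5 to 1856. Nuf2, Bub1 and Cdk1 of the mitotic machinery and the semaphorin gene Sema4c had like ratios of 526, 418, 257 and 331. Nuf2, Bub1 and Sema4c had only 1 count each at 0 h, and their intervals are wide: 94.1 to 20824, 74.7 to 16561 and 59.0 to 13102. That of Cdk1, with 3 counts, is 87.6 to 1248.

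The 10 largest decreases were of other kinds of gene. Ggt1, a gamma-glutamyl transferase of glutathione turnover, had 0, 0.473 and 0.284 CPM at 24 h, against 58.3, 40.2 and 49.2 CPM at 0 h, and Dtx1, a target and regulator of Notch signalling, had 8.30, 8.28 and 12.5 CPM at 24 h, against 228, 239 and 239 CPM at 0 h (log2 fold change -4.68 ± 0.21, adjusted p = 6.06e-16). Hsd11b1, which reactivates glucocorticoids, had 3.51, 6.62 and 5.97 CPM at 24 h, against 144, 140.3 and 127 CPM at 0 h. Genes of this set were chosen with the 2 times apart, so their lack of overlap is no result. The integrin chain gene Itgb3 (-5.06 on the log2 scale), the AMP deaminase gene Ampd1 (-4.74), Baiap3 (-5.40), Slfn5 (-5.13), the interferon-induced Ifit1 (-4.68) and the AP-1 gene Fos (-5.31) were also among them. Mx1, another interferon-induced gene, had 3 counts at 24 h and 180 at 0 h, a ratio of 67.8 (0 h over 24 h, exact 95% counting interval 22.8 to 332).

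**Figure D2:**
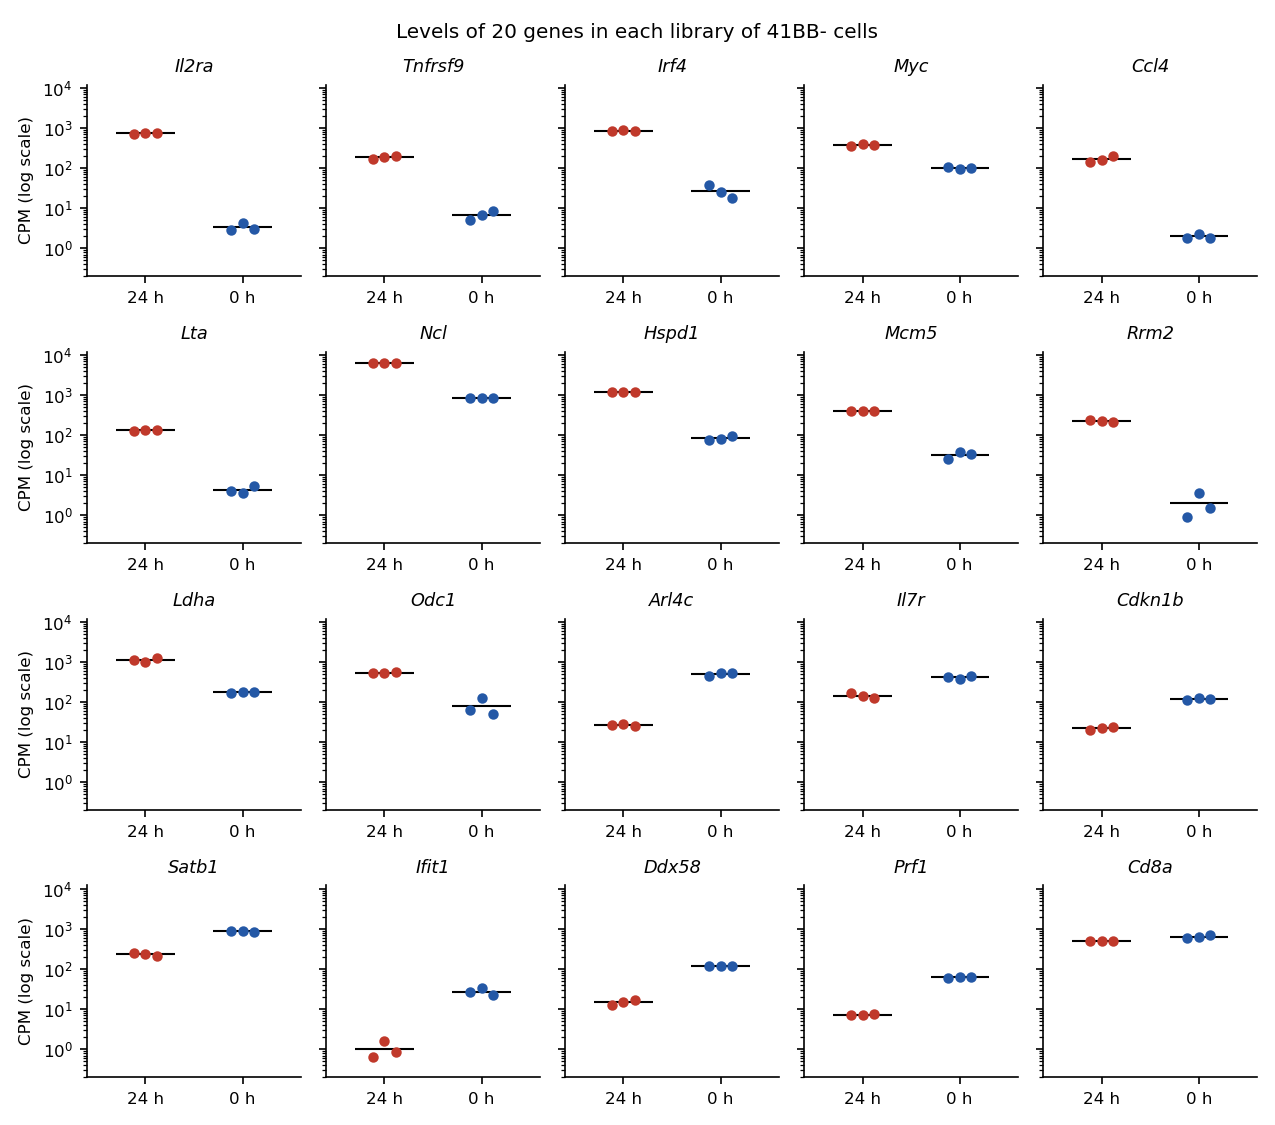
Level in CPM (log axis) of 20 genes in each of the 3 libraries at 24 h (left, red) and the 3 at 0 h (right, blue) of 41BB- cells, with the group mean as a bar. The 3 libraries of a time lie close together. The times do not overlap in any of the 20, which were chosen with earlier results of these data known. Cd8a, with 506 CPM at 24 h and 638 CPM at 0 h, moved least.

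Surface receptors of activated T cells rose more often than they fell. Of 27 tested activation and costimulatory genes, 16 were higher at 24 h and 5 lower, beside 29.0% and 27.8% of all genes. Il2ra, the alpha chain that gives the IL-2 receptor its high affinity, had 697, 759.7 and 747 CPM at 24 h, against 2.79, 4.21 and 3.02 CPM at 0 h (log2 fold change 7.70 ± 0.32, adjusted p = 1.57e-12). Tfrc, the transferrin receptor that brings in iron, had 746, 861 and 752 CPM at 24 h, against 64.1, 56.4 and 31.97 CPM at 0 h (log2 fold change 3.88 ± 0.19, adjusted p = 5.74e-14). The costimulatory receptor OX40 (Tnfrsf4) averaged 60.1 ± 4.67 CPM at 24 h and 3.22 ± 0.111 CPM at 0 h, and the adhesion receptor Cd44 189.9 ± 6.23 CPM at 24 h and 58.8 ± 11.03 CPM at 0 h. Against the majority, Cd2 (log2 fold change -2.39), its ligand Cd48 (-1.31) and Cd27 (-1.19), a costimulatory receptor of naive cells, were lower; without replicate 2 at 0 h or replicate 3 at 24 h, 3 were called lower in place of 5. The early activation marker Cd69 had 202, 213 and 240.3 CPM at 24 h, against 201, 223 and 152 CPM at 0 h, and did not pass the test (adjusted p = 0.636).

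Several coinhibitory receptors rose in the same day. Of 17 tested genes 8 were higher and 4 lower, beside 29.0% and 27.8% of all genes. Over the alternatives 6 to 10 were higher. Pdcd1, which encodes PD-1, had 61.6, 71.4 and 79.3 CPM at 24 h, against 1.24, 2.27 and 1.51 CPM at 0 h (log2 fold change 5.30 ± 0.32, adjusted p = 4.66e-14). Lag3 had 57.8, 61.00 and 57.1 CPM at 24 h, against 0.310, 0 and 0.603 CPM at 0 h, and Cd200 126, 146 and 173 CPM at 24 h, against 0.620, 1.94 and 2.11 CPM at 0 h. The PD-1 ligand genes Cd274 (log2 fold change 1.43) and Pdcd1lg2 (2.00) also rose. Vsir (VISTA), a brake of resting T cells, averaged 134 ± 4.96 CPM at 24 h and 313 ± 46.03 CPM at 0 h, and Cd96 110.0 ± 9.68 CPM at 24 h and 216 ± 25.4 CPM at 0 h, both lower.

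Of 30 transcription factors downstream of the TCR 12 were higher and 8 lower, beside 29.0% and 27.8% of all genes. Irf4, whose level scales with TCR signal strength, had 818, 869 and 841 CPM at 24 h, against 37.2, 24.6 and 18.1 CPM at 0 h (log2 fold change 4.91 ± 0.19, adjusted p = 3.01e-16). Myc, the driver of growth metabolism, had 351, 388 and 372 CPM at 24 h, against 107, 96.3 and 97.4 CPM at 0 h (log2 fold change 1.81 ± 0.12, adjusted p = 5.49e-13). The nuclear receptor Nr4a3 averaged 463 ± 53.9 CPM at 24 h and 53.7 ± 16.2 CPM at 0 h, the NF-kB subunit Rel 249 ± 19.99 CPM at 24 h and 64.9 ± 6.38 CPM at 0 h, and the aryl hydrocarbon receptor Ahr 56.5 ± 5.63 CPM at 24 h and 2.89 ± 0.914 CPM at 0 h. Zbtb32, a repressor of lymphocyte proliferation, had 1056 counts at 24 h and 4 at 0 h. The memory and lineage factors Eomes (log2 fold change -2.57), Id2 (-1.63), Rora (-1.88) and Gata3 (-1.60) fell. Prdm1, which drives terminal effector differentiation, was also lower, from a low level (0.0947 ± 0.164 CPM at 24 h and 3.39 ± 1.75 CPM at 0 h). Within the MYC network, Mxd4 and Mxd1, antagonists that compete with MYC for its partner MAX, fell (-3.15 and -1.60), as did Mnt (-1.01), whereas Max itself rose by 0.43 on the log2 scale.

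Immediate early genes ran against these gains. Of 27 tested genes that respond within minutes to signalling or handling, 19 were lower at 24 h and 3 higher. Of all genes, 27.8% were lower and 29.0% higher. Fos had 5.11, 5.91 and 1.14 CPM at 24 h, against 198, 226 and 44.9 CPM at 0 h (log2 fold change -5.31 ± 0.92, adjusted p = 5.08e-04). Dusp1, a MAP kinase phosphatase, averaged 16.02 ± 4.86 CPM at 24 h and 104 ± 46.1 CPM at 0 h, and the mRNA decay factor gene Zfp36 26.7 ± 2.56 CPM at 24 h and 148 ± 23.7 CPM at 0 h. Btg2, an anti-proliferative gene of the same class, fell by 2.61 on the log2 scale. Against them, Gadd45b rose to 76.5 ± 9.65 CPM at 24 h, against 5.35 ± 3.84 CPM at 0 h.

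Of 30 cytokine and chemokine genes, 12 were too low to test, and of the 18 tested 14 were higher and 3 lower. Among the higher ones, 4 had no count at 0 h and passed the filter on low counts through the 24 h libraries, so the count is not read against the share of all genes. Lymphotoxin alpha (Lta) had 125, 133 and 136 CPM at 24 h, against 4.03, 3.57 and 5.43 CPM at 0 h (log2 fold change 4.83 ± 0.28, adjusted p = 4.66e-14). Tnf had 91.3, 117 and 134 CPM at 24 h, against 9.92, 7.13 and 11.5 CPM at 0 h, and the chemokine gene Ccl4 141, 159 and 197 CPM at 24 h, against 1.86, 2.27 and 1.81 CPM at 0 h. These genes were named by adjusted p, so their lack of overlap between the times is no further support. Ifng, the signature effector cytokine of CD8 T cells, reached 12.1, 19.4 and 17.04 CPM at 24 h, against 1.24, 1.30 and 1.51 CPM at 0 h (log2 fold change 3.48 ± 0.74, adjusted p = 3.51e-04). The 3 that fell were Ccl5 (5.89 ± 3.13 CPM at 24 h and 46.8 ± 10.6 CPM at 0 h), a chemokine stored by memory cells, Il16 (93.6 ± 5.48 CPM at 24 h and 299.6 ± 35.2 CPM at 0 h) and lymphotoxin beta (Ltb, 59.1 ± 8.88 CPM at 24 h and 179.6 ± 21.1 CPM at 0 h).

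The killing machinery did not rise as a block. Of 23 tested effector and cytotoxic genes, 6 were higher and 12 lower, beside 29.0% and 27.8% of all genes. Gzmb, a granule protease that kills target cells, had 19.8, 20.6 and 36.1 CPM at 24 h, against 1.24, 0.648 and 0.603 CPM at 0 h (log2 fold change 4.80 ± 0.79, adjusted p = 1.51e-04). It was called in all alternatives except limma-voom with quality weights, where its adjusted p was 0.0625. Serpinb9 (62.7 ± 8.66 CPM at 24 h and 11.4 ± 2.50 CPM at 0 h), which protects the killer cell from its own granzyme B, and Serpinb6b (81.8 ± 23.6 CPM at 24 h and 13.1 ± 3.83 CPM at 0 h) rose with it. Perforin (Prf1), the pore that admits granzymes, had 7.02, 7.33 and 7.67 CPM at 24 h, against 60.4, 63.5 and 63.04 CPM at 0 h (log2 fold change -3.16 ± 0.34, adjusted p = 7.17e-09). The NK-type receptor gene Klrd1 (-2.52 on the log2 scale), the protease gene Ctsw (-1.51), the granule docking factor Unc13d (-1.42) and the granule proteoglycan Srgn (-0.82) fell as well.

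Naive and quiescence genes fell almost as one: 33 of 38 were lower, against 27.8% of all genes, with a median log2 fold change of -1.89. Il7r, the receptor for the survival cytokine IL-7, had 163, 144 and 122 CPM at 24 h, against 416, 378 and 439 CPM at 0 h (log2 fold change -1.60 ± 0.22, adjusted p = 7.20e-06). Satb1, a chromatin organiser of T cells, had 254, 229.8 and 216 CPM at 24 h, against 906, 893 and 823 CPM at 0 h. Cdkn1b, which encodes the cell cycle inhibitor p27, averaged 22.4 ± 2.18 CPM at 24 h and 119 ± 4.94 CPM at 0 h. Arl4c (log2 fold change -4.31), the RAP1 activator Rasgrp2 (-4.30) and Klf3 (-2.37) fell as well. Slfn2, a guardian of quiescence by mouse mutants, was the 1 member that rose, to 345 ± 40.4 CPM at 24 h, against 228 ± 6.37 CPM at 0 h; 2 members rose without replicate 1 at 0 h or replicate 1 at 24 h.

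Homing receptors followed the naive genes, with 19 of 26 lower and 6 higher, beside 27.8% and 29.0% of all genes. Gpr183, the oxysterol receptor that guides lymphocytes within lymphoid organs, averaged 20.5 ± 4.58 CPM at 24 h and 143 ± 29.04 CPM at 0 h. The adhesion ligand gene Selplg and the integrin chains Itgae and Itga6 were lower (log2 fold changes -1.65, -1.93 and -1.94). The integrin beta 1 chain gene Itgb1 rose to 196 ± 12.6 CPM at 24 h, against 75.6 ± 12.4 CPM at 0 h. The chemokine receptors Ccr4, Ccr6 and Ccr8, low at 0 h, averaged 14.1, 9.98 and 9.62 CPM at 24 h, against 0.951, 0.101 and 0.103 CPM at 0 h, and were higher. Ccr6 and Ccr8, nearly absent at 0 h, passed the filter on low counts through the 24 h libraries. The count of higher homing genes is therefore not read against the share of all genes. Without each library in turn, the log2 fold change was 5.66 to 8.10 for Ccr6 and 5.61 to 8.05 for Ccr8.

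Most cytokine receptors declined: 16 of 23 were lower and 4 higher, beside 27.8% and 29.0% of all genes. The higher ones were 2 chains each of the IL-2 and IL-12 receptors. Il6st, the shared gp130 chain, averaged 197 ± 14.7 CPM at 24 h and 413 ± 3.79 CPM at 0 h, and Il21r 101 ± 11.6 CPM at 24 h and 311 ± 57.7 CPM at 0 h. The receptor chains Il6ra, Il17ra, Il18r1 and Il27ra fell, with log2 fold changes between -2.30 and -1.56. Both chains of the IL-12 receptor rose, Il12rb1 to 56.7 ± 5.24 CPM at 24 h, against 8.21 ± 1.24 CPM at 0 h, and Il12rb2 to 17.4 ± 6.27 CPM at 24 h, against 3.54 ± 2.11 CPM at 0 h. Downstream, the kinase gene Jak1 had 428 ± 49.9 CPM at 24 h and 1163 ± 11.2 CPM at 0 h, and Stat4 47.1 ± 10.9 CPM at 24 h and 131 ± 11.8 CPM at 0 h, both lower. Stat5a, which carries the IL-2 signal, and its targets Cish, Socs2 and Pim1 were higher, with Cish at 115, 123 and 101 CPM at 24 h, against 2.79, 5.19 and 2.41 CPM at 0 h (log2 fold change 4.95 ± 0.49, adjusted p = 2.60e-07).

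The TCR complex and its proximal kinases and adaptors were lower in 24 of 29 tested genes, beside 27.8% of all genes. Cd3g, a signalling chain of the receptor, averaged 172 ± 22.2 CPM at 24 h and 545 ± 30.2 CPM at 0 h, and the kinase gene Prkcq, which leads to NF-kB, 178 ± 14.2 CPM at 24 h and 752 ± 55.2 CPM at 0 h. The adaptor gene Grap2 had 238, 287 and 229 CPM at 24 h, against 1190.5, 1125 and 826 CPM at 0 h (log2 fold change -2.13 ± 0.13, adjusted p = 4.66e-14). Cd5, a negative regulator whose level tracks TCR signal, moved the other way, with 278 ± 7.80 CPM at 24 h and 193 ± 17.3 CPM at 0 h. Cd8b1 and Cd8a fell (log2 fold changes -1.53 and -0.41); the change of Cd8a lost its call without replicate 3 at 0 h (log2 fold change -0.29, adjusted p = 0.0586).

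Of 29 negative regulators of TCR signalling 8 were higher, near the 29.0% of all genes, and 14 lower. Against a required 1.5-fold change 4 were higher and 7 lower. Dgka, the diacylglycerol kinase of anergic and resting cells, had 195 ± 9.41 CPM at 24 h and 1052 ± 65.6 CPM at 0 h, and the RAS inhibitor gene Rasa3 79.4 ± 2.00 CPM at 24 h and 511 ± 34.96 CPM at 0 h. Dusp4, a MAP kinase phosphatase, rose to 137 ± 19.5 CPM at 24 h, against 10.6 ± 4.09 CPM at 0 h. Spry1, an inhibitor of RAS-ERK signalling, had 63.5, 63.8 and 77.3 CPM at 24 h, against 0.620, 1.62 and 0.905 CPM at 0 h (log2 fold change 5.91 ± 0.35, adjusted p = 3.66e-14). Among NF-kB genes, Nfkb1, Nfkb2, Rel and the nuclear inhibitor gene Nfkbid rose by 1.65, 1.49, 1.86 and 2.12 on the log2 scale, while the kinase genes Map3k14 and Ikbkb fell (-1.26 and -1.06).

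Of 23 BCL2 family and apoptosis genes 8 were higher and 8 lower, beside 29.0% and 27.8% of all genes. Bcl2, which keeps naive cells alive, had 126, 100.2 and 93.5 CPM at 24 h, against 342, 327 and 233 CPM at 0 h (log2 fold change -1.57 ± 0.24, adjusted p = 2.41e-05). Bcl2l1, which encodes BCL-XL, had 311, 352 and 351 CPM at 24 h, against 24.2, 23.98 and 19.9 CPM at 0 h (log2 fold change 3.82 ± 0.18, adjusted p = 9.57e-16). Bcl2a1d, 1 of several near-identical A1 genes whose reads may be split between copies, also rose (2.76 on the log2 scale), as did the pro-apoptotic Bid (1.31). Casp8 and Birc2 fell (-1.11 and -0.96). The count of lower genes was 5 without replicate 2 at 0 h, 4 with no filter on low counts and 3 against a required 1.5-fold change.

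The interferon-induced genes, which freshly isolated cells express at a basal level, fell in 27 of 32 cases, with the lowest median among the 42 pathway lists, a log2 fold change of -2.41. These genes carry a response element (ISRE) that factors of the IRF family recognise. Searched on both strands as GAAA, any 2 bases and GAAA again, it was found in the 300-base RefSeq promoters (250 bases before the start to 50 after) of 13 of the 22 members with such a promoter (59.1%), against 3.14% of 8379 tested autosomal genes and 3.44% of 32851 RefSeq promoters. The share was 2.80% in genes higher at 24 h, 4.14% in genes lower and 2.71% in those not called. It was 25% in MHC class I and peptide loading genes (4 of 16) and in the Schlafen and GIMAP families (3 of 12). The promoters below belong to the 2 members with the smallest adjusted p whose window holds the element, printed 5′ to 3′ on the gene's strand in GRCm38.p6 with each match in capitals, which read as the reverse complement where the match lies on the other strand.
Ddx58 (chr4:40239776-40240075, minus strand): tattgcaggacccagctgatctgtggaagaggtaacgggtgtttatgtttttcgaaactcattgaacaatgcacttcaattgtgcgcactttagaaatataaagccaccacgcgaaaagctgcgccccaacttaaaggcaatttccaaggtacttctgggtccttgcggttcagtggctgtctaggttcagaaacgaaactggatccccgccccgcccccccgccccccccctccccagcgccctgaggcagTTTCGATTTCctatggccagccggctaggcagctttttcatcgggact
Ifit1 (chr19:34640639-34640938, plus strand): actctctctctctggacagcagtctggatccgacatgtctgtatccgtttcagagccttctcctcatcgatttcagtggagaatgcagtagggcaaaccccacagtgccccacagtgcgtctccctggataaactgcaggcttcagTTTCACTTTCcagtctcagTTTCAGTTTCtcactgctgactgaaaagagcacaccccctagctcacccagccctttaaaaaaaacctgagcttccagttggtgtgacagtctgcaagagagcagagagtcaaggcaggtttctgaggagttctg
Ifit1 holds 2 copies, the first beginning at position -104 from the start, and Ddx58 holds 1. A match shows only that the letters occur in the window.

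Ddx58, which encodes the RNA sensor RIG-I, had 12.8, 15.1 and 16.8 CPM at 24 h, against 116, 119 and 116 CPM at 0 h (log2 fold change -3.04 ± 0.25, adjusted p = 3.68e-11). Ifit1, an inhibitor of translation of foreign RNA, had 0.638, 1.66 and 0.852 CPM at 24 h, against 26.3, 32.7 and 22.6 CPM at 0 h (log2 fold change -4.68 ± 0.52, adjusted p = 9.11e-09). Irf9, the DNA-binding subunit of the interferon complex, averaged 27.2 ± 3.17 CPM at 24 h and 100.2 ± 5.20 CPM at 0 h. Usp18, the feedback inhibitor of the receptor, Ifi27l2a and Trim30a also fell (log2 fold changes -3.67, -3.26 and -1.75). Gbp2, a GTPase that interferon gamma also induces, was the exception that rose, to 148 ± 8.85 CPM at 24 h, against 78.6 ± 11.7 CPM at 0 h. The GIMAP GTPases of lymphocytes and the Schlafen genes fell in 9 of 12 cases, among them Gimap6 (78.5 ± 11.95 CPM at 24 h and 462 ± 3.71 CPM at 0 h), Gimap3 and Slfn8.

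MHC class I genes moved with them, 16 of 19 tested genes of the pathway being lower. H2-K1, a classical class I heavy chain, had 439, 479 and 506 CPM at 24 h, against 1068, 1183 and 1171 CPM at 0 h (log2 fold change -1.34 ± 0.10, adjusted p = 1.85e-12), and B2m, its invariant partner, 488 ± 10.9 CPM at 24 h and 883 ± 18.5 CPM at 0 h. H2-Q6 and H2-Q7 are near-identical copies between which reads may be split; both were lower. The chaperones Calr (log2 fold change 1.54) and Pdia3 (1.36), which serve all glycoproteins and not class I alone, rose. The proteasome was divided along the same line: 25 of 30 subunit genes rose, with Psmd1 at 237 ± 24.8 CPM at 24 h and 56.5 ± 6.75 CPM at 0 h. The 3 that fell were Psmb8, Psmb9 and Psmb10, which encode the immunoproteasome's catalytic subunits (-0.75, -0.94 and -1.33).

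**Figure D3:**
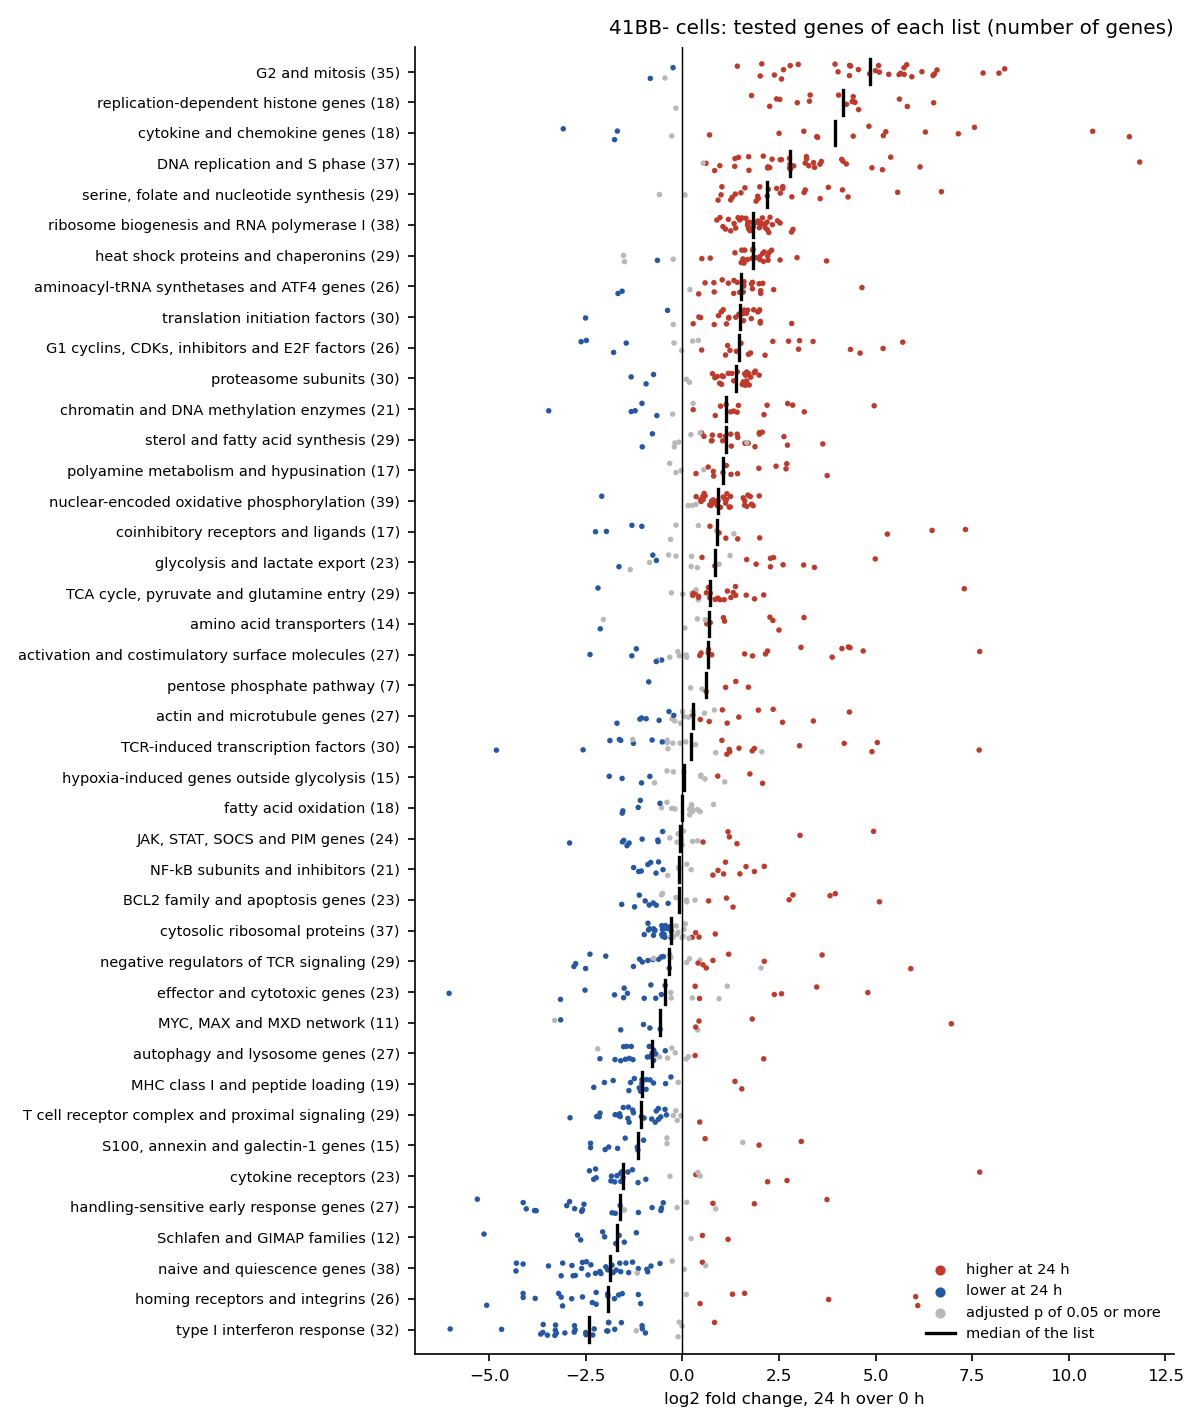
Log2 fold change (24 h over 0 h) of the tested autosomal genes of 42 gene lists in 41BB- cells, 1 dot a gene, ordered from the highest median (black bar) at the top to the lowest at the bottom; red dots were higher at 24 h, blue lower and grey did not pass the test. Cell division, histone, cytokine and nucleotide synthesis genes sit at the top, and homing, naive and interferon genes at the bottom.

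Ribosome construction rose without exception among the genes tested. All 38 of 38 tested genes for ribosome biogenesis and RNA polymerase I were higher, at a median log2 fold change of 1.83, and the count was 38 under every alternative. Ncl, the nucleolar protein nucleolin, had 6198, 6384 and 6075 CPM at 24 h, against 854, 827 and 818 CPM at 0 h (log2 fold change 2.82 ± 0.09, adjusted p = 8.25e-20). Npm1, its partner nucleophosmin, had 2786, 2682 and 2893 CPM at 24 h, against 458, 468 and 513 CPM at 0 h (log2 fold change 2.46 ± 0.11, adjusted p = 5.96e-17). The helicase gene Ddx21, the snoRNP core genes Nop56 and Nop58 and the small-subunit factor Heatr1 rose by 1.99, 2.14, 2.06 and 1.76 on the log2 scale.

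Many such genes are targets of MYC, which binds the E-box CACGTG, a palindrome that reads alike on both strands. The letters occurred in 10 of the 34 promoters found for this list (29.4%), against 10.5% of tested genes and 7.15% of all RefSeq promoters. Over all tested genes, 12.1% of those higher at 24 h, 9.93% of those lower and 9.78% of those not called held them. The share was not particular to lists that rose: it was 40% (4 of 10) in the MYC, MAX and MXD network, of whose tested genes 4 were higher and 5 lower, and 27.8% (5 of 18) in the autophagy and lysosome genes, of which 18 of 27 were lower. Shown are the 2 ribosome biogenesis genes with the smallest adjusted p whose promoter holds an E-box, with the box in capitals; both were chosen by that rule and not by the size of their change.
Utp20 (chr10:88826765-88827064, minus strand): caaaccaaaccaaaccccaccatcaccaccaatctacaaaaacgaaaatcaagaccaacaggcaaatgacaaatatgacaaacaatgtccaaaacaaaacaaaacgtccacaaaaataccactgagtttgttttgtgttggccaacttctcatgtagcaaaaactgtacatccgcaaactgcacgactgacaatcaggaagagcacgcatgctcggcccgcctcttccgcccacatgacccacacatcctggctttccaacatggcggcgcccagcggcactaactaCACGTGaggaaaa
Utp4 (chr8:106893390-106893689, plus strand): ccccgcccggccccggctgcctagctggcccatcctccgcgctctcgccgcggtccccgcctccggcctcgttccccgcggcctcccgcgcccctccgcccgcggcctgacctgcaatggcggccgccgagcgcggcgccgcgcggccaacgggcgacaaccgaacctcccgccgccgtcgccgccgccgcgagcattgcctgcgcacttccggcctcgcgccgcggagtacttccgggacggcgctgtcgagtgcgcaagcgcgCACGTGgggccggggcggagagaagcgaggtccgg
In these promoters the box begins at positions 37 and 15 after the start. Utp20, a component of the small-subunit processome, had 399 ± 34.9 CPM at 24 h and 107 ± 10.3 CPM at 0 h, and Utp4, of the same complex, 152 ± 1.79 CPM at 24 h and 32.8 ± 1.11 CPM at 0 h.

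The ribosomal protein genes themselves did not follow. Of 37, 20 were lower and 4 higher, by small amounts, beside 27.8% and 29.0% of all genes. Rps14 had 292 ± 49.7 CPM at 24 h and 498 ± 33.5 CPM at 0 h, and Rps24 777 ± 109 CPM at 24 h and 1352 ± 205 CPM at 0 h. Rps2, with 771 ± 67.95 CPM at 24 h and 405 ± 10.7 CPM at 0 h, was among those higher, of which 1 passed without replicate 2 at 0 h or without replicate 3 at 24 h and 2 without replicate 1 at 0 h. Against a required change of 1.5-fold, 4 were lower, and reads of these genes may be split with their many processed pseudogenes. Initiation factors rose in 27 of 30 cases, among them the helicase gene Eif4a1 (1268 ± 53.9 CPM at 24 h and 310.5 ± 10.03 CPM at 0 h), Eif3a, Eif3b and the cap-binding Eif4e (1.98 on the log2 scale). Pdcd4, an inhibitor of that helicase, fell to 91.5 ± 11.6 CPM at 24 h, against 493 ± 18.7 CPM at 0 h. Of the tRNA synthetase and amino acid response genes 23 of 26 rose, Kars, Eprs and Aars among them (2.08, 1.81 and 2.36).

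Chaperone genes rose too, 25 of 29 being higher. Hspd1, the mitochondrial chaperonin, had 1147, 1172 and 1194 CPM at 24 h, against 73.7, 81.4 and 95.3 CPM at 0 h (log2 fold change 3.73 ± 0.12, adjusted p = 1.60e-19). Hsp90ab1, a cytosolic HSP90, had 6768, 6657 and 7143 CPM at 24 h, against 1305, 1417 and 1384 CPM at 0 h, and Hsp90aa1 2359 ± 105 CPM at 24 h and 286 ± 23.8 CPM at 0 h. The chaperonin subunit gene Tcp1 (2.21) and Hspa8 (2.12) rose too, whereas Dnajb1 (-0.65), a heat-inducible co-chaperone, fell.

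Metabolic genes rose along biosynthetic routes. For serine, folate and nucleotide synthesis 27 of 29 genes were higher. Rrm2, the limiting subunit of the enzyme that makes deoxynucleotides, had 230.1, 222 and 211 CPM at 24 h, against 0.930, 3.57 and 1.51 CPM at 0 h (log2 fold change 6.70 ± 0.21, adjusted p = 1.03e-19). Cad, which starts pyrimidine synthesis, had 455 ± 37.9 CPM at 24 h and 74.5 ± 7.16 CPM at 0 h, Pfas of purine synthesis 245 ± 28.4 CPM at 24 h and 26.1 ± 5.46 CPM at 0 h, and Psat1 of serine synthesis 185 ± 13.1 CPM at 24 h and 19.3 ± 3.86 CPM at 0 h. Of 14 amino acid transporters 9 rose, led by Slc7a5 (206, 234 and 204 CPM at 24 h, against 46.2, 40.5 and 33.8 CPM at 0 h), the importer of large neutral amino acids. The lysosomal exporter Slc36a1 fell by 2.13 on the log2 scale.

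Glycolytic genes rose in 11 of 23 cases, beside 29.0% of all genes. Ldha, which makes lactate, had 1097, 1006 and 1278 CPM at 24 h, against 168, 179 and 179 CPM at 0 h (log2 fold change 2.61 ± 0.13, adjusted p = 1.13e-15). Pkm, Tpi1 and Gapdh rose by 2.28, 3.42 and 2.36 on the log2 scale, and the lactate exporter Slc16a1 by 2.28. Pdk1, a kinase that inhibits pyruvate dehydrogenase, averaged 68.1 ± 2.05 CPM at 24 h and 202 ± 17.9 CPM at 0 h, and Hk1 83.8 ± 4.86 CPM at 24 h and 135 ± 2.89 CPM at 0 h, both lower. In the pentose phosphate pathway 4 of 7 genes were higher, beside the same 29.0%. Tkt rose to 355 ± 14.1 CPM at 24 h, against 103 ± 5.64 CPM at 0 h. Genes induced by low oxygen outside glycolysis gave 3 higher and 4 lower of 15, beside 29.0% and 27.8% of all genes.

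Nuclear genes of oxidative phosphorylation were higher in 35 of 39 cases, in smaller steps (median log2 fold change 0.92); 23 passed against a required 1.5-fold change. Atp5b, of the ATP synthase, had 756, 733 and 826 CPM at 24 h, against 221, 242 and 256 CPM at 0 h (log2 fold change 1.61 ± 0.10, adjusted p = 2.23e-13), and Cyc1 of complex III 88.9 ± 6.99 CPM at 24 h and 24.9 ± 4.99 CPM at 0 h. In the TCA cycle 23 of 29 were higher, with Idh3a at 192 ± 14.6 CPM at 24 h and 49.8 ± 4.84 CPM at 0 h; 12 passed against 1.5-fold, and cytosolic Idh1 fell (-2.18). Of 18 fatty acid oxidation genes 5 fell, which is the share of all genes that were lower (27.8%), among them Cpt1a, the gate for fatty acids into mitochondria (23.6 ± 4.43 CPM at 24 h and 47.4 ± 3.91 CPM at 0 h), Acaa2 and Hadhb, and 0 rose in edgeR's test. At an unadjusted p under 0.05, 1 was higher (Cpt2, named after its values were seen), DESeq2 called 0 and the other alternatives 0 to 2. Sterol and fatty acid synthesis rose in 21 of 29 cases, with Idi1 at 127 ± 24.02 CPM at 24 h and 9.69 ± 1.61 CPM at 0 h, Cyp51 at 123 ± 2.15 CPM at 24 h and 17.6 ± 1.98 CPM at 0 h and Fasn at 501 ± 33.3 CPM at 24 h and 119.6 ± 8.64 CPM at 0 h. Elovl5, an elongase, and the lipogenic factor gene Srebf1 fell (log2 fold changes -1.04 and -0.78).

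Polyamine genes, whose pathway the study's title ties to the 41BB+ subset, rose in 41BB- cells as well: 13 of 17 were higher. Odc1, the rate-limiting ornithine decarboxylase, had 519, 537 and 565 CPM at 24 h, against 64.8, 123 and 49.2 CPM at 0 h (log2 fold change 2.70 ± 0.25, adjusted p = 1.60e-07). Srm, spermidine synthase, had 239 ± 17.6 CPM at 24 h and 16.9 ± 5.88 CPM at 0 h (log2 fold change 3.75 ± 0.30, adjusted p = 8.77e-09). Eif5a, the translation factor that carries the spermidine-derived residue hypusine, had 1186, 1028 and 1239 CPM at 24 h, against 180.3, 165 and 165 CPM at 0 h. The antizyme inhibitor gene Azin1 (log2 fold change 1.26) and the salvage enzyme gene Mtap (1.05) rose less. Amd2 also rose, but Amd1 and Amd2 are close copies whose reads may be split.

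Transcripts of the replication machinery were up by 24 h. Of the list, 36 of 37 S-phase genes were higher and none lower in the edgeR test, in which 0 had an unadjusted p under 0.05 in that direction and DESeq2 called 0 lower. Cells entering S phase switch on genes through E2F factors, whose site was searched as TTTGGCGC and TTTCCCGC on both strands. Either occurred in 9 of the 31 promoters found for the list (29.0%), against 3.37% of tested genes and 1.57% of all RefSeq promoters. The share was 5.35% in genes higher at 24 h, 2.54% in genes lower and 2.51% in those not called. A like share was found in chromatin and DNA methylation enzymes (26.7%, 4 of 15) and in G1 cyclins, CDKs, inhibitors and E2F factors (25%, 5 of 20). In G2 and mitosis genes, of which 32 of 35 were higher, it was 7.14% (2 of 28). The promoters of the 2 members with the smallest adjusted p that hold a match are shown with the matches in capitals.
Mcm5 (chr8:75109259-75109558, plus strand): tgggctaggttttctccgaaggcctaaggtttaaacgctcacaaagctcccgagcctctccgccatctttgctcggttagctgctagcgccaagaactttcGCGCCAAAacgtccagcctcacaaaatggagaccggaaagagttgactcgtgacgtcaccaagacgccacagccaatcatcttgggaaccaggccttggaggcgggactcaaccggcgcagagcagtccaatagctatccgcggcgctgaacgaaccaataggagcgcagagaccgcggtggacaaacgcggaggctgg
Mcm3 (chr1:20820263-20820562, minus strand): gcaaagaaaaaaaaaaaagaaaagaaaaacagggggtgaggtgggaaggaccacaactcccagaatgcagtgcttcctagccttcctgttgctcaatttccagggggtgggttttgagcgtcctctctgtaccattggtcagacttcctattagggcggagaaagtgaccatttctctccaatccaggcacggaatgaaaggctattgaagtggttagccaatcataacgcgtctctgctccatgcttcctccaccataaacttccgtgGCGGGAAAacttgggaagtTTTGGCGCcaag
The match of Mcm5 begins at position -149, and Mcm3 holds 2, the first at position 19 after the start. Among tested genes, 24 promoters held both an E-box and an E2F motif, 22 an E-box and an ISRE, and 8 an E2F motif and an ISRE.

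Mcm5, a subunit of the replicative helicase, had 393, 405 and 403 CPM at 24 h, against 24.8, 37.6 and 34.1 CPM at 0 h (log2 fold change 3.56 ± 0.13, adjusted p = 1.76e-18). Mcm3, of the same helicase, had 546, 619 and 579 CPM at 24 h, against 58.3, 62.6 and 57.3 CPM at 0 h (log2 fold change 3.21 ± 0.12, adjusted p = 5.33e-18). Uhrf1, which keeps DNA methylation through replication, had 397 ± 12.2 CPM at 24 h and 8.93 ± 2.74 CPM at 0 h. Of 18 tested histone genes of S phase 17 were higher, for example Hist1h3e (103 ± 12.3 CPM at 24 h and 12.4 ± 2.36 CPM at 0 h); these genes are near-identical copies and their messages lack a poly(A) tail, which total RNA libraries retain.

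**Figure D4:**
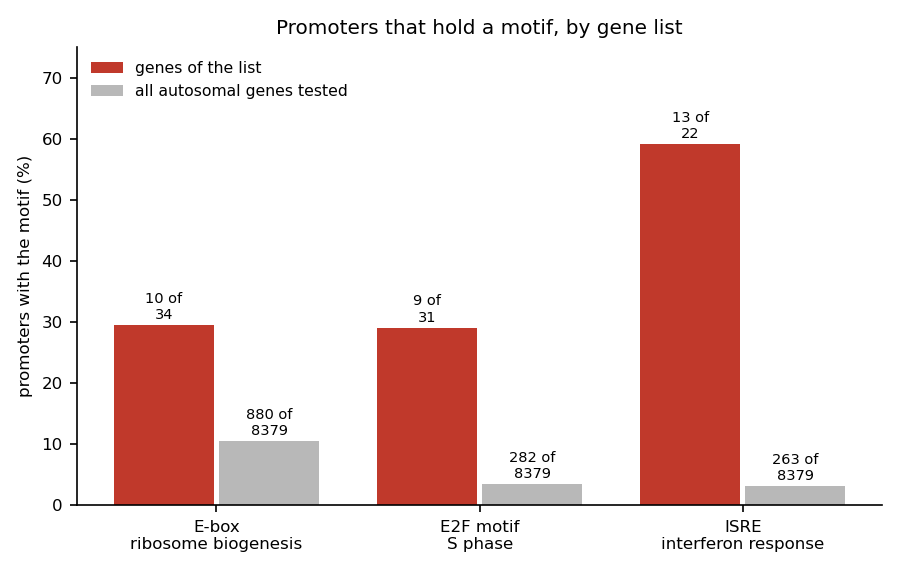
Percent of 300-base RefSeq promoters that hold a motif, for genes of a list (red, left of each pair) and for all tested autosomal genes with a promoter (grey, right), with counts above the bars. The E-box was found in 10 of 34 ribosome biogenesis promoters, the E2F motif in 9 of 31 S-phase promoters and the ISRE in 13 of 22 interferon response promoters.

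Genes of G2 and mitosis rose in 32 of 35 cases with a median log2 fold change of 4.85. Kif11, the motor that separates spindle poles, had 146, 147 and 116 CPM at 24 h, against 2.79, 0.972 and 2.41 CPM at 0 h (log2 fold change 5.94 ± 0.26, adjusted p = 7.88e-16). The checkpoint kinase gene Bub1b averaged 93.1 ± 5.88 CPM at 24 h and 4.37 ± 0.392 CPM at 0 h, and the condensin gene Smc2 259.5 ± 25.5 CPM at 24 h and 30.8 ± 3.87 CPM at 0 h. In G1, cyclin E1 (Ccne1) had 72.4 ± 6.47 CPM at 24 h and 8.48 ± 2.40 CPM at 0 h, and Tfdp1, the partner of E2F factors, 295 ± 23.1 CPM at 24 h and 34.2 ± 7.18 CPM at 0 h. The inhibitors Cdkn1b and Cdkn2d (-2.62 on the log2 scale), the pocket protein gene Rbl2 (-1.78) and cyclin D3 (Ccnd3, -1.45) fell, within a list of 18 higher and 4 lower of 26. RNA levels do not show how many cells were dividing.

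Of 27 actin and microtubule genes 11 were higher and 7 lower, beside 29.0% and 27.8% of all genes. The second share is close to that of all genes. Tuba1b and Tubb5, tubulins of dividing cells, and the microtubule destabiliser Stmn1 rose by 2.35, 1.16 and 4.32 on the log2 scale, while Tmsb10 and Coro1a, which regulate actin, and the integrin linker Tln1 fell (-1.69, -1.10 and -1.06). Chromatin and DNA methylation enzymes were mostly higher, 14 of 21, and 5 were lower, beside 29.0% and 27.8% of all genes. Ezh2, the catalytic subunit of Polycomb complex PRC2, had 294, 325 and 304 CPM at 24 h, against 46.8, 20.4 and 30.8 CPM at 0 h (log2 fold change 3.15 ± 0.18, adjusted p = 9.18e-14), and the remodeller gene Hells 408 ± 39.04 CPM at 24 h and 12.4 ± 4.08 CPM at 0 h. The paralog Ezh1 (-1.32), the 5-methylcytosine oxidase gene Tet1 (-3.46) and Kmt2a (-1.05) fell. Of 15 S100, annexin and galectin genes 9 fell, Anxa6 with 132 ± 7.52 CPM at 24 h and 468 ± 32.2 CPM at 0 h and Ahnak with 101 ± 25.5 CPM at 24 h and 497 ± 62.03 CPM at 0 h among them. Autophagy and lysosome genes fell in 18 of 27 cases, including Npc2 (-1.74), Laptm5 (-1.28) and Ctss (-1.47); the autophagy gene Gabarapl1 rose to 17.6 ± 1.71 CPM at 24 h, against 3.87 ± 1.82 CPM at 0 h.

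The same interval in 41BB+ cells provides the comparison that shows where the 41BB- response differs. In 41BB+ cells 2289 genes were higher at 24 h and 2102 lower; 1842 genes were higher in both populations (50.1% of those in 41BB- cells and 80.5% of those in 41BB+ cells) and 1612 lower in both (45.7% and 76.7%). A test of the difference between the responses (41BB- change minus 41BB+ change, in the same fit) was positive in 1781 genes (14.0%) and negative in 1157 (9.12%); without TMM scaling the split was 2164 and 871, and against a required difference of 1.5-fold it was 899 and 385. Of the 1781, 1656 had risen in 41BB- cells, and of the 1157, 964 had fallen in 41BB- cells. All 38 ribosome biogenesis genes had a positive difference, as did 26 of 39 oxidative phosphorylation genes, 25 of 30 proteasome genes and 24 of 29 genes of serine, folate and nucleotide synthesis. The median log2 fold change of ribosome biogenesis genes was 1.83 in 41BB- cells and 0.31 in 41BB+ cells. For G2 and mitosis the medians were 4.85 in 41BB- cells and 4.47 in 41BB+ cells, with 10 of 35 differences positive and 5 negative.

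**Figure D5:**
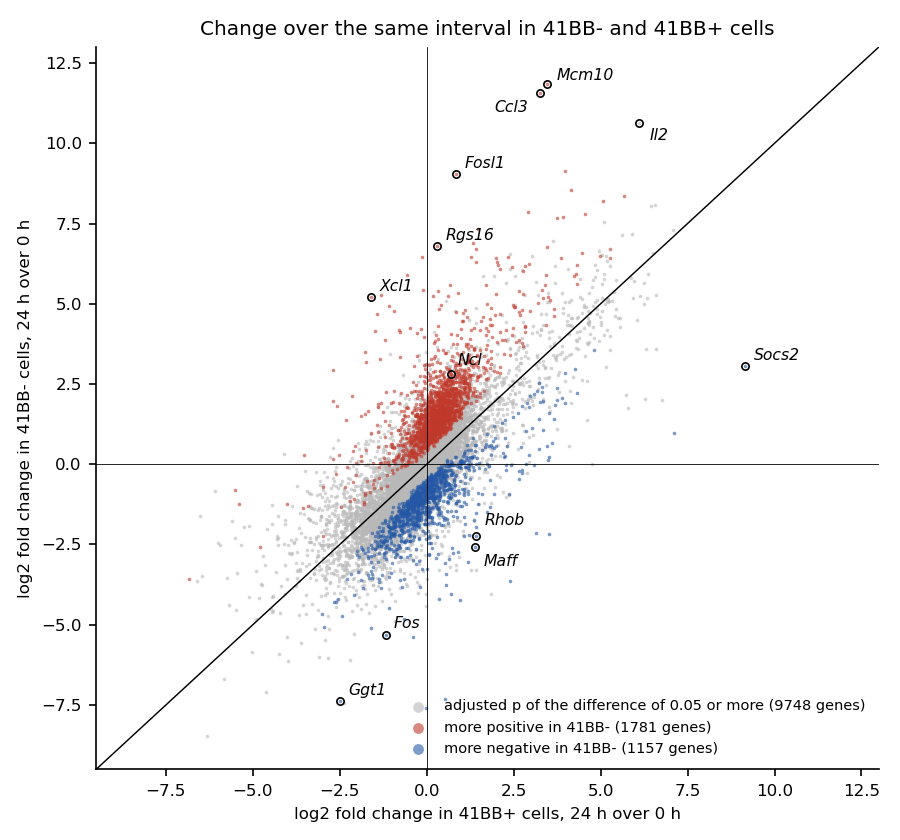
Log2 fold change (24 h over 0 h) of every autosomal gene tested in 41BB- cells (vertical axis) against 41BB+ cells (horizontal axis), with the line of equal change; red points had a more positive change in 41BB- cells (1781 genes), blue points a more negative one (1157), grey points no difference at an adjusted p under 0.05. Most red points lie above 0 on the vertical axis and most blue points below it. The colours were set by a difference that contains the 41BB- change, which favours this position in advance.

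Levels of both populations are given for Ncl and for genes with the largest differences, which do not stand for all genes that differed. Differences in level between the populations were not tested. Ncl averaged 6219 ± 155 CPM at 24 h and 833 ± 18.9 CPM at 0 h in 41BB- cells, and 6742 ± 108 CPM at 24 h and 4286 ± 137 CPM at 0 h in 41BB+ cells (difference 2.12 ± 0.12, adjusted p = 8.90e-13). For Ncl the mean levels of the populations were closer at 24 h than at 0 h, where the 41BB+ cells stood higher. Mcm10 and Ccl3, with no count in 41BB- cells at 0 h, averaged 15.7 ± 4.01 and 8.48 ± 0.895 CPM in 41BB+ cells at 0 h. The chemokine gene Xcl1 averaged 114 ± 25.98 CPM at 24 h and 2.91 ± 1.24 CPM at 0 h in 41BB- cells, and 46.05 ± 9.99 CPM at 24 h and 145 ± 19.9 CPM at 0 h in 41BB+ cells (difference 6.80 ± 0.58, adjusted p = 2.77e-07). Rgs16, a regulator of G-protein signalling, averaged 77.8 ± 1.36 CPM at 24 h and 0.634 ± 0.549 CPM at 0 h in 41BB- cells, and 42.5 ± 4.61 CPM at 24 h and 35.7 ± 4.40 CPM at 0 h in 41BB+ cells (difference 6.50 ± 0.48, adjusted p = 1.34e-10). Fosl1 had 15.7 ± 4.59 CPM at 24 h and 9.01 ± 1.54 CPM at 0 h in 41BB+ cells and no count at 0 h in 41BB- cells.

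Among the largest negative differences, Fos averaged 4.05 ± 2.56 CPM at 24 h and 156 ± 97.3 CPM at 0 h in 41BB- cells, and 6.11 ± 7.79 CPM at 24 h and 14.6 ± 7.60 CPM at 0 h in 41BB+ cells (difference -4.12 ± 1.34, adjusted p = 0.0488). This difference of Fos is near the threshold: it lost its call in 14 of 22 alternatives, with adjusted p up to 0.42, and without replicate 2 of the 41BB+ cells at 24 h it was -2.22. Ggt1 averaged 0.252 ± 0.238 CPM at 24 h and 49.2 ± 9.03 CPM at 0 h in 41BB- cells, and 0.990 ± 1.07 CPM at 24 h and 5.92 ± 1.30 CPM at 0 h in 41BB+ cells (adjusted p of the difference = 3.18e-04). Maff and Rhob, early response genes, fell in 41BB- cells (log2 fold changes -2.58 and -2.23), where they averaged 28.95 and 12.4 CPM at 0 h, and were at 1.61 ± 0.513 and 1.34 ± 1.02 CPM at 0 h in 41BB+ cells. The fall of Rhob was not called without replicate 2 at 24 h (adjusted p = 0.0587). Socs2, a feedback inhibitor of cytokine signalling, averaged 6.66 ± 1.47 CPM at 24 h and 0.741 ± 0.819 CPM at 0 h in 41BB- cells and 19.7 ± 1.85 CPM at 24 h in 41BB+ cells, in which it had no count at 0 h. The mean levels of the 2 populations at 24 h were closer than at 0 h for Fos, Ggt1, Maff and Rhob, which was not tested. Gzmb stood lower in 41BB- cells at 24 h as well, with 25.5 ± 9.19 CPM in 41BB- cells and 142 ± 44.7 CPM in 41BB+ cells, a difference in level not tested here.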

How the data were processed

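Total RNA had been extracted with RNeasy Plus Micro and turned into stranded libraries (Takara SMARTer kit for total RNA, version v2) according to the protocols in the labels. Per the submitters' processing notes, the authors used FastQC 0.11.9, Trimmomatic 0.38, HISAT2 2.2.1 and featureCounts with GRCm38; the annotation release, strand setting and treatment of multi-mapped reads were not given in these sources. Without the strand setting, reads of overlapping or antisense genes may not be told apart. The deposited table holds raw counts per Ensembl gene. Names came from GENCODE M21, which gave a symbol to 55227 of 55487 genes.

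From these counts, all 18 libraries in 6 groups were fitted in R 4.3.3 with edgeR 4.0.16 (filterByExpr with a minimum count of 10 and a total of 15, TMM factors, robust quasi-likelihood fit and test). Adjusted p is Benjamini-Hochberg over 13150 tested genes, the threshold was 0.05, and the 12686 autosomal genes are reported. The SE of a log2 fold change is its size divided by the square root of F. CPM uses the total of each library without TMM, and values after ± beside CPM are SDs over 3 libraries. A floor of 3 counts over a group and exact 95% intervals cover counting error only. The scripts were tested on simulated counts. The alternatives were DESeq2 1.42.0, limma 3.58.1 voom with quality weights, other scalings and filters, a replicate block, a 1.5-fold minimum and leaving out each library.

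Replicates are biological per the labels, but no label says whether libraries share mice. No 2 libraries of a group agreed within sampling noise. The chi-square per degree of freedom was 4.75 to 8.06 within the 41BB- groups at 0 and 24 h, and 4.56 to 8.90 over all 6 groups. The gene lists and the genes named were chosen with earlier results of these data known. Named were the 10 largest changes each way with a mean of at least 5 CPM and groups apart, up to 6 genes each way per list by adjusted p and those against their list's majority, the 5 largest differences each way from 41BB+ cells, and 14 fixed genes; marker genes and Utp20 and Utp4 stand outside this rule. Of 1125 autosomal protein-coding list genes, 22 are listed at 0 in all 18 libraries, among them genes most cells use (Cox4i1, Rpl13), and were not tested. Some genes of the lists are not reported here. Promoters came from RefSeq (GRCm38.p6), matched by name for 8379 tested genes.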

Additional observations from a re-analysis of the deposited data

Results flagged for a closer look

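The change from 0 h to 24 h differed between 41BB- and 41BB+ cells, by the test of the difference itself, in 1781 genes with a more positive change in 41BB- cells and in 1157 with a more negative one; 899 and 385 passed against a required difference of 1.5-fold.
Among the genes named, this difference (41BB- change minus 41BB+ change, log2 scale, edgeR's quasi-likelihood test) was 6.80 ± 0.58 for Xcl1 (adjusted p = 2.77e-07), 6.50 ± 0.48 for Rgs16 (adjusted p = 1.34e-10) and 2.12 ± 0.12 for Ncl (adjusted p = 8.90e-13). It was -4.12 ± 1.34 for Fos (adjusted p = 0.0488) and -4.89 ± 0.96 for Ggt1 (adjusted p = 3.18e-04); the value of Ggt1 depends on the model's prior count, since the gene had 3 counts at 24 h in 41BB- cells. Socs2, Maff, Rhob, Mcm10, Ccl3 and Fosl1 were among the largest differences by the naming rule, and their levels stand with the results above.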

How the results depend on the processing

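Over the alternatives, between 2540 and 3923 autosomal genes were higher at 24 h and between 2164 and 3905 lower, beside 3677 and 3531, and 0 genes called in the main test were called in the opposite direction. The one alternative that moved these counts by over 1.5 times was a required change of 1.5-fold, under which 2164 were lower and the difference from 41BB+ cells was positive in 899 genes and negative in 385; by construction it tests a stricter question. Without each library in turn, 3539 to 3635 genes were higher and 2903 to 3164 lower, and the difference was positive in 1540 to 1677 and negative in 928 to 1202. Library totals in place of TMM moved the median log2 fold change by 0.0712. With the replicate number as a block, 3677 were higher and 3527 lower, and 1766 and 1145 differed from 41BB+ cells. The block changed no call of a named gene. The titles name a number as an experiment, but do not say what its libraries share. The main fit did not pair the 2 times, and whether the numbers pair them was not settled. Between the times, deviations of 41BB- libraries with the same number correlated at 0.118, 0.0192 and 0.134. Those with other numbers correlated at -0.143 to 0.0241. Replicate 2 at 24 h correlated slightly more with replicate 1 at 0 h (0.0235) than with its own number. At 24 h the 41BB- and 41BB+ libraries of a number correlated at 0.209, 0.107 and 0.221, each best with its own number. At 0 and 24 h Xist took at most 2.56e-05% of counts in replicate 3 of both populations and at least 0.0124% in the other replicates. At 72 h replicate 3 had 0.0580% and 0.0596%. At 0 h the 41BB- and 41BB+ libraries of a number correlated at -0.0193, 0.0661 and -0.0430. Of 3914 values of named genes under alternatives, 23 lost a call, 6 (all of Cpt2) gained one and 0 changed sign where called. The losses were those of Cd5, Cd8a, Dnajb1, Eef1a1, Gbp2, Hk1, Ighm, Max, Psmb8, Slfn2 and Srebf1 under the 1.5-fold minimum and of Cd8a, Gzmb, Rhob and Xbp1 in the alternatives named with them; the cause was not tested. With 3085241 to 4239795 counts a library, a gene under 1 CPM rests on a few reads.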

Other observations

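Gene classes outside the lists also split between the times. Of 291 tested lincRNAs, 7.56% were higher and 40.2% lower at 24 h, and of 259 antisense genes 6.56% were higher and 38.6% lower, beside 30.2% and 28.8% of 10744 protein-coding genes. Processed pseudogenes went the other way, with 38.3% of 856 higher and 10.2% lower; their reads may be split with their parent genes, and the part of this in their counts was not tested.

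Genes of nuclear transport and RNA binding were named here after their values were seen. Ran, the GTPase of nuclear transport, had 1027, 914 and 1100.1 CPM at 24 h, against 137, 129 and 149.6 CPM at 0 h (log2 fold change 2.79 ± 0.14, adjusted p = 1.44e-15 in edgeR's test). The importins Kpnb1 and Ipo5 averaged 913 ± 38.9 and 768 ± 10.5 CPM at 24 h, against 191 ± 13.7 and 94.7 ± 5.47 CPM at 0 h (SD, n = 3 each). Among abundant genes that were lower, Eef1a1, the elongation factor that brings aminoacyl-tRNA to the ribosome, had 4502, 3991 and 4434 CPM at 24 h, against 5200.5, 5362 and 6216 CPM at 0 h, and Tpt1 had 1389, 1192 and 1598 CPM at 24 h, against 2833, 3097 and 3657 CPM at 0 h. The times did not overlap in any of these genes, which were picked with their values known.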
